A study of Mus musculus with 12 samples.

Results

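The 9 genes described here encode FOS, JUN and closely related members of the AP-1 transcription factor family. They are Fos, Fosb, Fosl1, Fosl2, Jun, Junb, Jund, Atf3 and Maff, taken by name from the table of deposited values. Each was represented by the probe set with 1 gene symbol that had the highest mean over all arrays. All 9 were measured, out of 19938 genes in all, and each had 1 probe set.

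Kidney total RNA of female mice was hybridised to 12 whole-transcript arrays, 4 in each of 3 groups. The first group was wild-type C57BL/6 mice injected with 500 ng recombinant FGF23 per g body weight. The second was wild-type C57BL/6 mice injected with 100 µl saline. The third was KL null mice, whose strain label is 129/SvEv/C57BL/6, and which also received 100 µl saline. Injections were intraperitoneal, the mice were killed 1 hour later, and all had been on standard diet for 5 to 8 weeks. The strain label differs with the genotype although the wild-type mice are described as littermates, so genotype and strain cannot be told apart. The labels do not say whether each array is a mouse of its own, so each p-value rests on a spread between samples that may be technical.

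FGF23 is a hormone made by bone that acts on the kidney to lower phosphate reabsorption and the synthesis of active vitamin D. It signals through FGF receptors that need klotho, the product of Kl, as co-receptor, and these receptors drive the RAS and ERK kinase cascade. AP-1 is a dimer of 2 basic leucine zipper proteins, usually a FOS protein with a JUN protein, that binds short DNA elements and switches on genes of growth, injury and matrix turnover. Fos, Fosb, Jun, Junb and Atf3 are immediate early genes, whose transcription starts within minutes of a stimulus without new protein synthesis. JUND is present in many resting cells, the FOS-like proteins FOSL1 and FOSL2 usually come later, and the small MAF protein MAFF lacks an activation domain and pairs with CNC factors.

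Promoters of immediate early genes such as Fos are known for serum response, cyclic AMP response and TATA elements upstream of the start site. RefSeq promoter windows (GRCm38.p6) were found for 8 of the 9 genes, 10 windows in all because Maff has 3, and the 250 bases before the start were searched on both strands. The windows of Junb and Fos, the genes called in the comparisons that follow, and of Fosb and Jun, which were not called, are shown 5′ to 3′ on the gene's strand. Capitals mark every match to TGACG (the half-site of the cyclic AMP response element), TATAAA (the TATA element), CCAAT (the box bound by NF-Y) or GCGNGGGCG (the EGR element), or to its reverse complement.
Junb (chr8:84978749-84978998, minus strand): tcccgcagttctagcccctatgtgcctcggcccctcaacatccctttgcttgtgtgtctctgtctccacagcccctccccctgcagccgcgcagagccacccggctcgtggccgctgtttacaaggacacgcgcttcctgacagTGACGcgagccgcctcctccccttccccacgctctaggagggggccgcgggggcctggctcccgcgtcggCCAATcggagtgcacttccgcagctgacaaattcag
Fos (chr12:85473640-85473889, plus strand): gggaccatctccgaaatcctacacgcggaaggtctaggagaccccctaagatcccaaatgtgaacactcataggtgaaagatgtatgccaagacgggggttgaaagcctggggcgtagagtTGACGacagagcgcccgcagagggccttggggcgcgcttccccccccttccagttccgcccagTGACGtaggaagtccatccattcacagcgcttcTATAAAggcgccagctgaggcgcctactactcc
Fosb (chr7:19310046-19310295, minus strand): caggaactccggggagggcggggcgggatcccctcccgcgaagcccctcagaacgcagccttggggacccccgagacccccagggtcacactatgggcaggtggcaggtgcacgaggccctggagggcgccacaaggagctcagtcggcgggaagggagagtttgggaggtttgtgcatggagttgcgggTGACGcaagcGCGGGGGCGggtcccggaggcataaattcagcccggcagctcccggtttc
Jun (chr4:95052223-95052472, minus strand): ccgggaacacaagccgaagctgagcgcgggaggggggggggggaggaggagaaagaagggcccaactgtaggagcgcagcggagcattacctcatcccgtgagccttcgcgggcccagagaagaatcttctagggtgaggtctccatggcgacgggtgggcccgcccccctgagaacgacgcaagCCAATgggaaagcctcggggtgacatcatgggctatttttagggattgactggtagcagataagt

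Junb held TGACG at positions -106 to -102 from the start site and CCAAT at -36 to -32. Fos held TGACG at -129 to -125 and at -66 to -62, and TATAAA at -33 to -28. Fosb held TGACG at -60 to -56 and an EGR element at -50 to -42. Of the exact patterns searched, Jun held only CCAAT, at -65 to -61. TGACG was found in 6 of the 10 windows, those of Atf3, Fos, Fosb and Junb and 2 of Maff, and in 17.8% of the 32851 promoter windows in the table. TGACG is part of the full element TGACGTCA, which was found in 1 of the 10 windows, a Maff window, and in 1.55% of promoters. The TATA element, in 12.4% of promoters, was found in Fos, and the CCAAT box, in 33.8%, in Jun and Junb. The EGR element, in 4.7% of promoters, was found in 3 of the 10 windows, of Fosb, Fosl2 and Maff. The AP-1 site itself, TGACTCA, was in 0 of the 10 windows and in 4.46% of promoters, and the CArG box bound by SRF in 0 of the 10 and in 1.47%. These matches describe letters in a short window and are not shown binding sites. An element farther upstream than 250 bases could not be found, so a count of 0 does not show that a gene lacks the element. Only exact letters were matched, and near matches, such as tgacatca in the Jun window, were not counted.

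Values are log2 signals, on which a difference of 1 is a doubling, given as mean ± SD over 4 arrays. Signals of different genes come from different probes and, apart from a rank by mean signal, were not set against each other. The SD of all log2 values on an array, called its spread here, ranged from 2.166 to 2.281, and FGF23 replicates 1 and 2 had the lowest, at 2.166 and 2.167. Kl itself, the gene disrupted in KL null, read 9.72 ± 0.07 in KL null and 10.61 ± 0.13 in vehicle, a log2 difference of -0.89 (SE 0.0831, adjusted p = 1.75e-05) with no overlap. Whether its probes lie in the disrupted part is not given in the sources used here. Egr1, an immediate early gene used here as a check of the hormone, read 9.34 ± 0.35 with FGF23 and 6.16 ± 0.17 with vehicle. The 8 measured kidney markers averaged 11.32 to 11.43 on the vehicle arrays, 11.27 to 11.37 with FGF23 and 11.17 to 11.24 in KL null. Every KL null array thus lay below every wild-type array. Of 7 macrophage markers, 3 were called higher in KL null than in vehicle (Gpnmb by 2.83, Cd68 by 1.06 and C1qa by 0.61) and Csf1r lower (-0.55). Of all genes, 3.58% were called higher and 4.44% lower there. With quantile normalization the Cd68 call was lost (0.99, adjusted p = 0.0503). Their average ranged over the arrays from 6.47 to 7.66 in KL null, from 6.36 to 6.64 in vehicle and from 6.14 to 6.61 with FGF23. In bulk RNA, fewer cells of a type and less RNA per cell cannot be told apart.

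**Figure D1:**
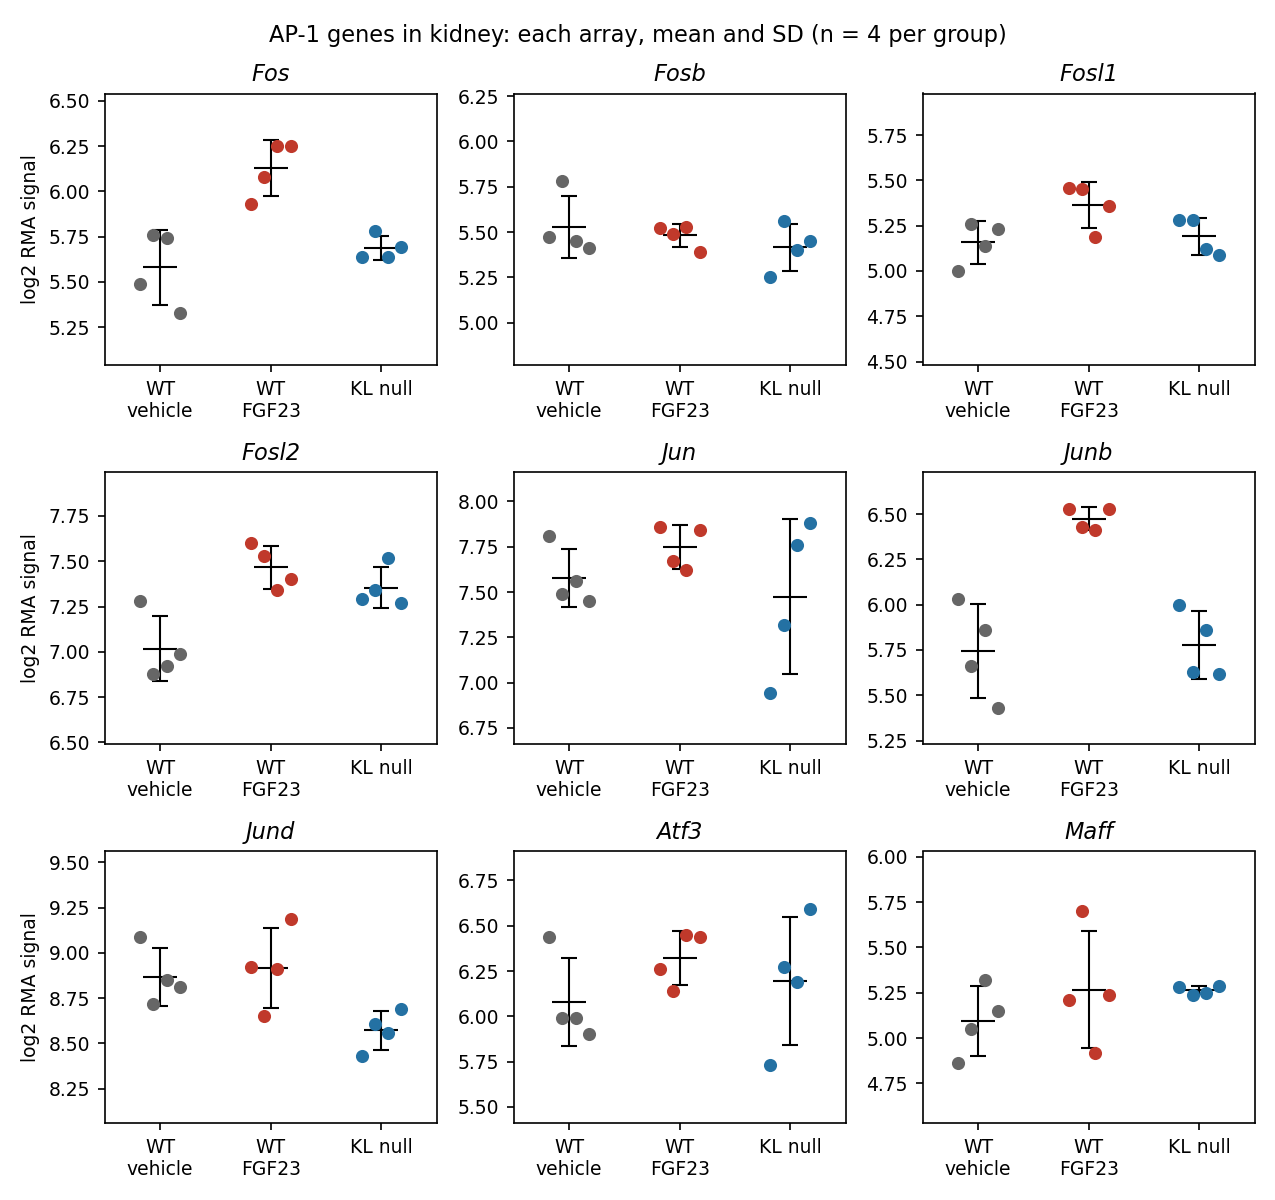
Log2 signal (vertical axis, 1 panel per gene, each spanning the same range) of the 9 AP-1 genes on every array of the vehicle, FGF23 and KL null groups. Points are arrays, the long bar is the mean and the whiskers are 1 SD (n = 4). All FGF23 points lie above all points of both other groups for Fos and Junb, while Jun and Atf3 spread most in KL null.

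The wild-type groups show which transcripts differ 1 hour after an injection of the hormone. Junb, which encodes a JUN protein that activates less strongly than c-JUN on many promoters, was the AP-1 gene called. It rose 1.66-fold. Fos and Fosl2 stood 1.46-fold and 1.37-fold above vehicle without passing the test, and the other 6 genes overlapped between the groups. By mean signal over the 12 arrays, Junb stood above 41.68% of all genes, Fos above 38.61% and Fosl2 above 60.67%. Junb and Fos thus lay below the median gene. A gene was called when its adjusted p over all 19938 genes was below 0.05, which 0.0802% of genes did in the higher direction.

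Junb read 6.53, 6.43, 6.41 and 6.53 on the FGF23 arrays and 6.03, 5.66, 5.86 and 5.43 on the vehicle arrays. Every FGF23 array lay above every vehicle array, and the FGF23 arrays were close together while the vehicle arrays were not. The means were 6.48 ± 0.06 and 5.75 ± 0.26, a log2 difference of 0.73 (SE 0.121, 95% interval 0.47 to 0.99, adjusted p = 0.047). The call was close to the threshold. It was lost when any 1 of 9 arrays was left out, with adjusted p = 0.112, 0.175, 0.0835 and 0.126 without FGF23 replicates 1 to 4, 0.142, 0.0959 and 0.0845 without vehicle replicates 2, 3 and 4, and 0.0622 and 0.0777 without KL null replicates 2 and 3. The log2 difference itself stayed between 0.62 and 0.82. Of 23 alternatives run for Junb, 8 kept the call, with adjusted p from 0.0213 to 0.39.

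Fos, whose protein is the classical partner of JUN and whose transcription is a standard readout of ERK signalling, read 5.93, 6.08, 6.25 and 6.25 with FGF23. The vehicle arrays read 5.49, 5.76, 5.74 and 5.33, all below the lowest FGF23 array. The log2 difference was 0.55 (SE 0.106, 95% interval 0.32 to 0.77), and the adjusted p was 0.0998. Fos was therefore not called, although with array quality weights its adjusted p was 0.0341. In the 23 alternatives the adjusted p ranged from 0.0341 to 0.305.

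Fosl2, encoding the FOS-like protein FRA-2, read 7.60, 7.53, 7.34 and 7.40 with FGF23 and 7.28, 6.88, 6.92 and 6.99 with vehicle. The groups did not overlap, with the first vehicle array only just below the lowest FGF23 array. The log2 difference was 0.45 (SE 0.101, 95% interval 0.24 to 0.66, adjusted p = 0.185). Groups without overlap and with FGF23 higher were found for 3 of the 9 AP-1 genes and for 4.09% of all genes.

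The remaining FOS-type genes were less far apart. Fosl1, encoding FRA-1, read 5.46, 5.45, 5.19 and 5.36 with FGF23 and 5.00, 5.26, 5.14 and 5.23 with vehicle. Its groups overlapped through the third FGF23 array, and the log2 difference was 0.21 (95% interval 0.02 to 0.40, adjusted p = 0.304). Fosb, an immediate early gene related to Fos, read 5.48 ± 0.06 with FGF23 and 5.53 ± 0.17 with vehicle. Its log2 difference was -0.04, with a 95% interval from -0.25 to 0.16 and an adjusted p of 0.831. The sign of this difference turned when vehicle replicate 2, the highest Fosb value of any array, was left out (0.04).

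Among the JUN genes, neither Jun nor Jund passed the test. Jun, encoding c-JUN, read 7.86, 7.67, 7.62 and 7.84 with FGF23 and 7.81, 7.49, 7.56 and 7.45 with vehicle. The log2 difference was 0.17 (95% interval -0.18 to 0.52, adjusted p = 0.609), so an increase as large as that of Fosl2 lies within the interval. Jund read 8.92 ± 0.22 and 8.87 ± 0.16, with a log2 difference of 0.05 (95% interval -0.19 to 0.29, adjusted p = 0.842).

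Atf3, a stress-induced factor that often represses its targets, read 6.26, 6.14, 6.45 and 6.44 with FGF23 and 6.44, 5.99, 5.99 and 5.90 with vehicle. The vehicle arrays lay below the lowest FGF23 array except the first, which was as high as the highest ones. The log2 difference was 0.24 (95% interval -0.09 to 0.58, adjusted p = 0.451). Maff read 5.21, 5.70, 4.92 and 5.24 with FGF23 and 4.86, 5.05, 5.32 and 5.15 with vehicle. The groups overlapped, with 1 FGF23 array well above the others, and the log2 difference was 0.17 (95% interval -0.12 to 0.46, adjusted p = 0.528). It was 0.03 without FGF23 replicate 2 and 0.29 without FGF23 replicate 3. Over the 9 genes the median log2 difference was 0.21, against 0.04 over all genes, and 8 of 9 were positive against 58.6% of all genes. Some cell type marker lists had similar medians, 0.25 for neutrophil, 0.24 for adipocyte and 0.18 for adrenal gland markers. Others did not, with -0.05 for kidney and -0.13 for macrophage markers. With quantile normalization Fosl1 (0.06), Maff (0.04) and Fosb (-0.18) moved down, while Junb read 0.65, Fosl2 0.46 and Fos 0.42.

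**Figure D2:**
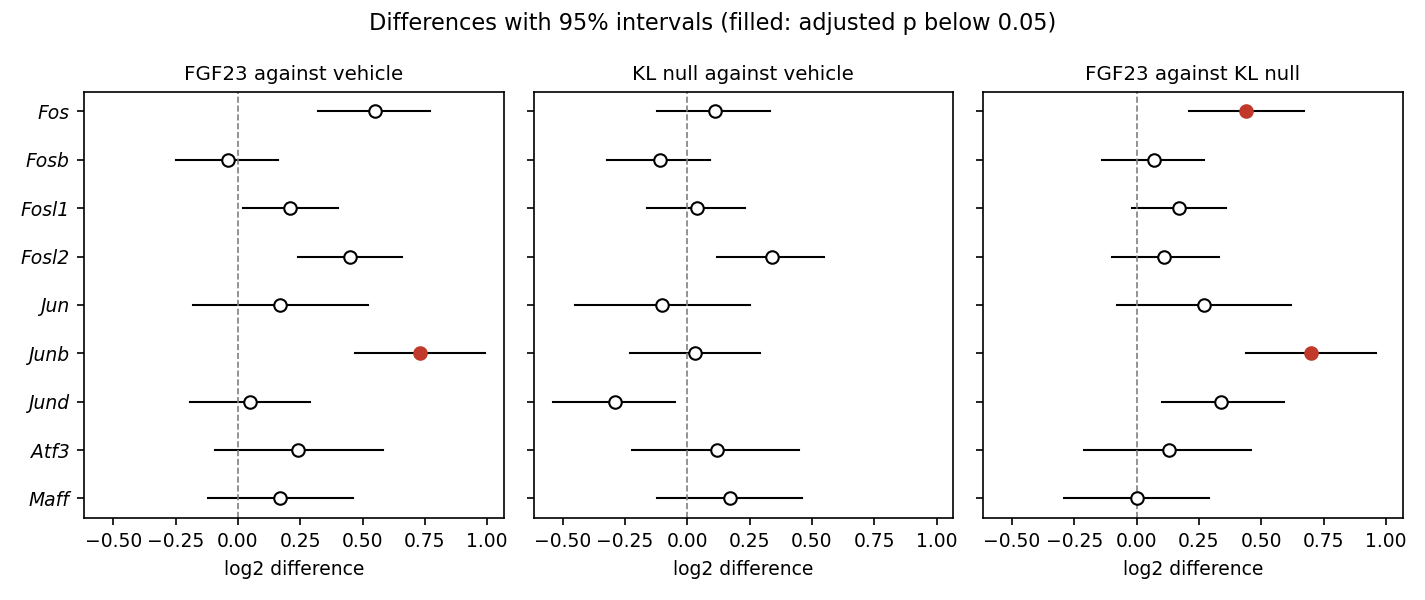
Log2 differences (horizontal axis) of the 9 AP-1 genes in the 3 comparisons, with 95% intervals from limma; filled points have an adjusted p below 0.05 and open points do not. Junb is filled in both comparisons with FGF23 (0.73 and 0.70), which share the FGF23 arrays. Fos is filled only against KL null (0.44), and no gene is filled in KL null against vehicle.

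KL null against vehicle asks what differs in kidney of klotho-null animals, both groups having received saline. None of the 9 AP-1 genes passed the limma test (0 of 9, against 8.01% of all genes), and 2 of them, Fosl2 and Jund, had an unadjusted p below 0.05, which 21.3% of all genes had, a share close to theirs. The background itself depended on scaling, with 713 genes higher and 885 lower as reported, but 453 higher and 1369 lower once the arrays were centred on their medians. The vehicle arrays here are the same as in the comparison with FGF23.

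Fosl2 read 7.29, 7.34, 7.52 and 7.27 in KL null, against 7.28, 6.88, 6.92 and 6.99 in vehicle. The lowest KL null array was just under the highest vehicle array, so the groups overlapped by that pair. Between the groups the log2 difference amounted to 0.34 (SE 0.101, 95% interval 0.12 to 0.55, adjusted p = 0.053). Without vehicle replicate 1 the difference was 0.42 and the adjusted p 0.0217. In 5 of 24 alternatives Fosl2 was called, with adjusted p from 0.0217 to 0.166 over all 24.

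Jund, which encodes the JUN protein with the steadiest expression and is regarded as a brake on proliferation, stood lower in KL null. It read 8.43, 8.61, 8.56 and 8.69 there and 9.09, 8.72, 8.85 and 8.81 in vehicle, with no overlap. This gave a log2 difference of -0.29 (SE 0.113, 95% interval -0.54 to -0.05, adjusted p = 0.133). Groups without overlap and with KL null lower were found for Jund alone of the 9, and for 7.44% of all genes.

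Fos read 5.64, 5.78, 5.64 and 5.69 in KL null, within the range set by the highest and lowest vehicle arrays except for its second array. In log2 terms the difference came to 0.11 (95% interval -0.12 to 0.33, adjusted p = 0.64). Junb read 6.00, 5.63, 5.86 and 5.62 in KL null, inside the vehicle range, with a log2 difference of 0.03 (95% interval -0.23 to 0.29, adjusted p = 0.923). The intervals leave room for changes of up to these bounds in either direction. The sign of the Junb difference turned under quantile normalization (-0.03), median centring (-0.02), array weights (-0.03) and omission of the 4 arrays of lowest spread (-0.01), and without vehicle replicate 4 (-0.07) or KL null replicate 1 (-0.04).

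Jun and Atf3 were the most variable of the 9 in KL null. Jun read 6.94, 7.32, 7.76 and 7.88 there, 7.48 ± 0.43, with the first array below every wild-type array and the fourth above every one. Its log2 difference from vehicle was -0.10 (95% interval -0.45 to 0.25, adjusted p = 0.801). The sign turned without KL null replicate 1 (0.08) and without the 4 arrays of lowest spread (0.24). Atf3 read 5.73, 6.27, 6.19 and 6.59 in KL null, 6.20 ± 0.35, and again the first array was the lowest and the fourth the highest. Its log2 difference was 0.12 (95% interval -0.22 to 0.45, adjusted p = 0.757). From the first to the fourth KL null array the spread of the array also rose, from 2.195 through 2.217 and 2.256 to 2.281. The part of array spread in the Jun and Atf3 values was not tested.

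The last 3 genes overlapped with vehicle. Fosb read 5.42 ± 0.13 in KL null, with a log2 difference of -0.11 (95% interval -0.32 to 0.09, adjusted p = 0.571). Fosl1 read 5.19 ± 0.10 (log2 difference 0.04, 95% interval -0.16 to 0.23, adjusted p = 0.887). Its sign turned under quantile normalization (-0.05), median centring (-0.02) and the spread of the array as a covariate (-0.03). Maff read 5.28, 5.24, 5.25 and 5.29, the tightest of the groups, and differed by 0.17 (95% interval -0.12 to 0.46, adjusted p = 0.539).

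FGF23-treated wild-type mice against KL null mice compares the hormone-exposed kidney with that of klotho-null animals given saline. This contrast differs in hormone, genotype and strain label at once, and these cannot be told apart in it. Junb and Fos were called, both higher with FGF23, so 2 of the 9 AP-1 genes passed against 5.25% of all genes in that direction. Junb was 1.62-fold and Fos 1.36-fold higher. The FGF23 arrays here are the same as in the comparison with vehicle, so the Junb calls of these comparisons are not independent.

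For Junb the lowest FGF23 array, at 6.41, lay well above the highest KL null array, at 6.00. Between the groups the log2 difference amounted to 0.70 (SE 0.121, 95% interval 0.44 to 0.96, adjusted p = 0.00249). The call held in all 23 alternatives run for Junb, with adjusted p from 0.000972 to 0.0355. For Fos the lowest FGF23 array read 5.93 and the highest KL null array 5.78. This gave a log2 difference of 0.44 (SE 0.106, 95% interval 0.21 to 0.67, adjusted p = 0.0152). The call held in 22 of 23 alternatives and was lost without KL null replicate 3, with adjusted p = 0.0507 and a difference of 0.42. Fos and Junb were also the genes of the 9 whose FGF23 and KL null arrays did not overlap, which held in the higher direction for 8.15% of all genes.

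Jund came next, 8.92 ± 0.22 with FGF23 and 8.57 ± 0.11 in KL null. Its second FGF23 array, at 8.65, fell below the highest KL null array, at 8.69, and the other 3 stood above all of them. In log2 terms the difference came to 0.34 (SE 0.113, 95% interval 0.10 to 0.59, adjusted p = 0.0597). Without FGF23 replicate 2 the adjusted p was 0.029, and 7 of 24 alternatives called Jund, with adjusted p from 0.0133 to 0.162.

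The other 6 genes overlapped and did not pass. Jun differed by 0.27 (95% interval -0.08 to 0.62, adjusted p = 0.302), which became 0.09 without KL null replicate 1 and 0.41 without KL null replicate 4. Fosl1 differed by 0.17 (95% interval -0.02 to 0.36, adjusted p = 0.234). Atf3 differed by 0.13 (95% interval -0.21 to 0.46, adjusted p = 0.632). Fosl2, whose mean stood above vehicle in both groups, differed between them by 0.11 (95% interval -0.10 to 0.33, adjusted p = 0.498). Fosb differed by 0.07 (95% interval -0.14 to 0.27, adjusted p = 0.679) and Maff by 0.00 (95% interval -0.29 to 0.29, adjusted p = 0.992). The median log2 difference of the 9 was 0.17 against 0.05 over all genes, and all 9 were positive before rounding, against 59.8% of all genes. Maff was negative in several alternatives. Among the cell type marker lists the median was 0.18 for neutrophil, 0.21 for endothelial and -0.60 for macrophage markers.

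Across the 3 groups, the mean level of Fos ran from vehicle through KL null to FGF23. Its FGF23 arrays overlapped with neither other group, although the difference from vehicle was not called. Junb had the same order, with vehicle and KL null not distinguishable. For Fosl2 the order was again vehicle, KL null and FGF23, and both neighbouring pairs overlapped. Jund ran from KL null through vehicle to FGF23, with vehicle and FGF23 overlapping. For Fosl1, Jun, Atf3, Maff and Fosb every neighbouring pair of groups overlapped.

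**Figure D3:**
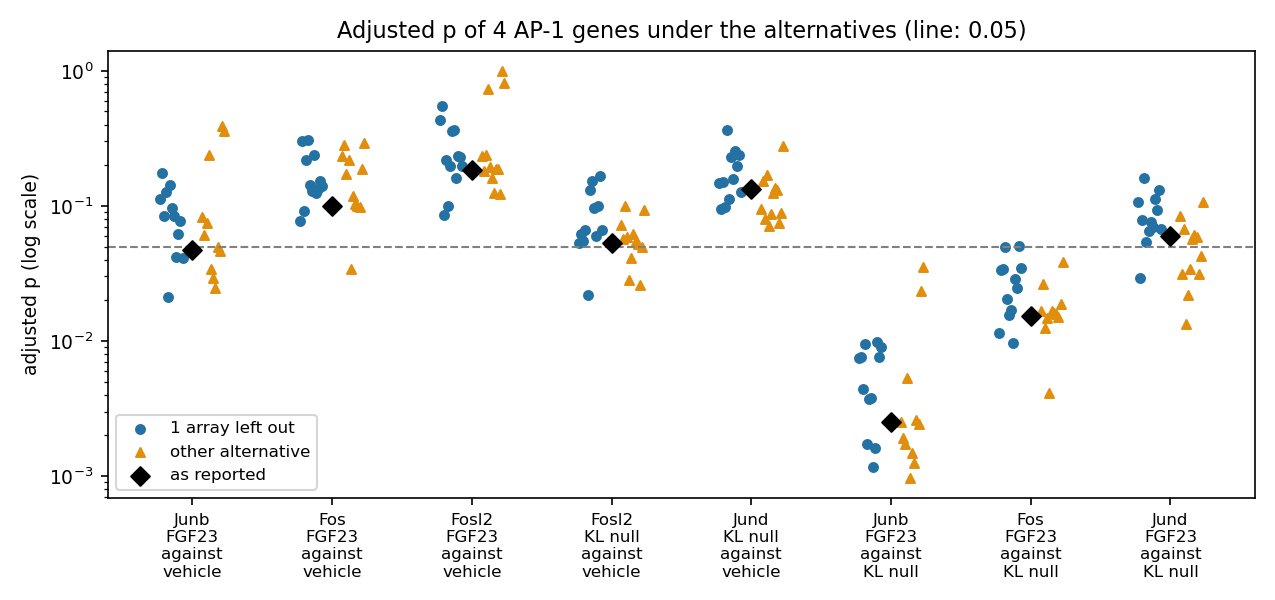
Adjusted p (vertical axis, log scale) of Junb, Fos, Fosl2 and Jund in the comparisons named below each column; diamonds are the values as reported, circles leave 1 array out, triangles are the other alternatives and the dashed line is 0.05. Junb with FGF23 against vehicle straddles the line (0.0213 to 0.39), while Junb with FGF23 against KL null stays below it (0.000972 to 0.0355).

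Variation within the groups did not join the 9 genes into 1 block. After group means were subtracted, 16 of the 36 gene pairs correlated positively over the 12 arrays, with a median Pearson r of -0.06. Jun and Atf3 (0.79), Jund and Atf3 (0.75) and Jun and Jund (0.56) were the highest among the JUN and ATF genes, and Fosl1 and Maff reached 0.54. Fos and Junb, both higher with FGF23 than in KL null, had an r of 0.07. The lowest value was that of Fosl1 and Atf3, at -0.72, followed by Fos and Fosl2 at -0.60. All pairs share the same arrays and their spread, so these are descriptions of 12 points.

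**Figure D4:**
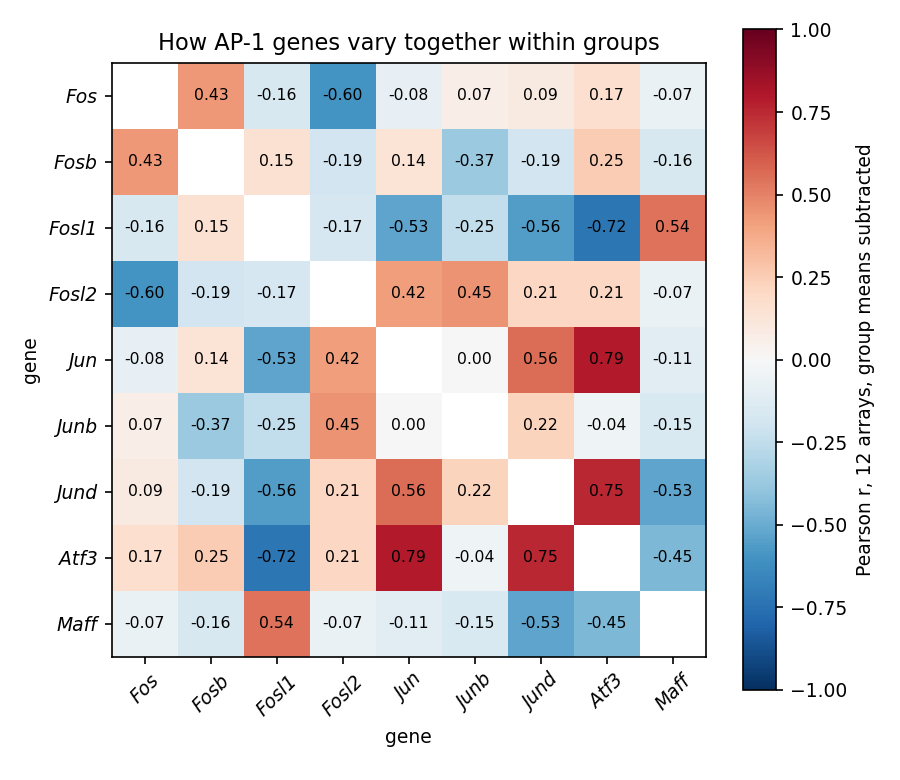
Pearson r between each pair of AP-1 genes (rows and columns) over 12 arrays after subtraction of group means, as colour and printed value. Jun, Jund and Atf3 form the reddest cells (0.56 to 0.79), and Fos with Junb is near 0 (0.07).

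Over the 12 arrays with group means left in, the genes most like Junb were Egr1 (Pearson r 0.905), Ier2 (0.900) and Kcnn3 (0.898). Those most like Fos were Tnfrsf14 (0.948), Gse1 (0.921) and Sowahb (0.902), and Junb came at rank 44 with 0.791. Those most like Jun were Ncs1 (0.921), Sprtn (0.905) and Zfp35 (0.903), and Atf3 came at rank 79 with 0.764. With group means subtracted, different genes led apart from Tnfrsf14. They were Dnajc30 (0.907), Fabp7 (0.896) and Itih2 (0.893) for Junb, and Tnfrsf14 (0.942), Dppa5a (0.941) and Dap (0.940) for Fos. For Jun they were Hsd17b7 (0.942), Sfmbt1 (0.942) and Tomm20 (0.936).

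The other genes around AP-1 were taken by role. Upstream of it, SRF with its ternary complex factors and CREB switches on Fos and Egr1. Of 10 such genes, 0 were called with FGF23 against vehicle (0.0853% of all genes), where Elk1, an ERK-activated ternary complex factor, differed by 0.16 (adjusted p = 0.345) and Mrtfa, an actin-regulated SRF co-activator, by 0.20 (adjusted p = 0.418). Srf itself read 7.90 with FGF23, 7.82 with vehicle and 7.33 in KL null. It fell in KL null against vehicle (-0.49, adjusted p = 0.0136) and was higher with FGF23 than in KL null (0.57, adjusted p = 0.00441), the 1 gene of the 10 called in each, against 8.01% and 12% of all genes.

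Of 14 measured genes of the MAP kinase cascade, which carries receptor signals to the FOS and JUN genes and proteins, 0 were called in either comparison against vehicle, against 0.0853% of all genes with FGF23 and 8.01% in KL null. With FGF23 the closest were Mapk11, a p38 kinase (0.32, adjusted p = 0.258), and Mapk9, a JUN kinase (-0.21, adjusted p = 0.263). In KL null they were Map2k2, a kinase that activates ERK (-0.28, adjusted p = 0.0588), and Map2k6, a kinase that activates p38 (0.40, adjusted p = 0.0801). Between FGF23 and KL null, Map2k2 was called higher with FGF23 (0.30, adjusted p = 0.0399), and Map2k6 (-0.56, adjusted p = 0.0142) and the JUN kinase Mapk8 (-0.39, adjusted p = 0.0219) lower, 3 of 14 against 12% of all genes. The list's median log2 differences were -0.05, 0.01 and -0.04 in the 3 comparisons.

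Of 18 measured dimer partners of the FOS, JUN and small MAF proteins, 0 were called against vehicle in either comparison, against 0.0853% and 8.01% of all genes. The small MAF gene Mafg was higher with FGF23 than in KL null (0.33, adjusted p = 0.0171), 1 of 18 against 12%. With FGF23 against vehicle the closest were Mafk, a small MAF (0.33, adjusted p = 0.241), and Nfe2, a CNC partner of the small MAFs (0.33, adjusted p = 0.261). In KL null they were Nfe2l1 (-0.23, adjusted p = 0.0606) and Bach1 (0.26, adjusted p = 0.0968), a CNC activator and a CNC repressor. Genes for turnover of FOS and JUN proteins gave 0 calls of 7 in all 3 comparisons. The closest were Cop1 (-0.22, adjusted p = 0.265) and Cul4a (-0.16, adjusted p = 0.362), ubiquitin ligase components that act on JUN, with FGF23, and Usp28 (0.28, adjusted p = 0.14) and Fbxw7 (0.18, adjusted p = 0.199) in KL null.

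Of 22 other immediate early genes, 3 rose with FGF23 against vehicle and 0 fell. Egr1, a zinc finger factor, rose by 3.18 (adjusted p = 1.55e-08), Zfp36, which promotes decay of AU-rich mRNAs, by 1.15 (adjusted p = 0.0127) and Ier2 by 0.97 (adjusted p = 0.00105). Over all genes, 0.0802% were called higher in this comparison. The median over the 22 was 0.27, against 0.04 over all genes, and 20 of 22 were positive, against 58.6% of all genes. The neutrophil and adipocyte marker medians, 0.25 and 0.24, were close to that of the 22. In KL null against vehicle, Myc, a growth regulator (0.49, adjusted p = 0.00924), and Gadd45b, a stress gene (0.41, adjusted p = 0.0268), were higher; these 2 of 22 stand near the 8.01% of all genes called there. FGF23 against KL null called Egr1 (2.77, adjusted p = 5.52e-08), Ier2 (0.92, adjusted p = 0.0001) and Zfp36 (0.83, adjusted p = 0.00445) higher, and Gadd45b lower (-0.42, adjusted p = 0.0173), 4 of 22 against 12% of all genes.

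Of 22 measured genes that textbooks give as AP-1 targets, 0 were called with FGF23 against vehicle, where 0.0853% of all genes were. The smallest p-values were those of Timp1, a metalloproteinase inhibitor (0.21, adjusted p = 0.308), and Il1b, a cytokine (0.33, adjusted p = 0.348). In KL null against vehicle 5 were higher and 2 lower, 7 of 22 against 8.01% of all genes. Timp1 (1.24, adjusted p = 2.78e-06), the hyaluronan receptor Cd44 (0.72, adjusted p = 0.00517) and the cyclin Ccnd1 (0.54, adjusted p = 0.0271) were among the higher ones. So were the chemokine Ccl2 (0.47, adjusted p = 0.0205) and the keratin Krt8 (0.46, adjusted p = 0.00461). The collagenase Mmp13 (-0.59, adjusted p = 0.00812) and Gclc, of glutathione synthesis (-0.58, adjusted p = 0.0344), were lower. All 7 calls held with median centring and 5 with quantile normalization, which lost Ccl2 (0.38, adjusted p = 0.0723) and Gclc (-0.47, adjusted p = 0.0806); no sign turned under either. The higher macrophage markers given above were seen in the same KL null arrays. Of 4 fibroblast markers 1, Dcn, was higher too (0.85, adjusted p = 0.0152), against 3.58% of all genes. Pdgfra (0.45), Pdgfrb (0.09) and Col1a1 (-0.08) were not called. The part of these markers in the differences was not tested.

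Against KL null, the FGF23 group had Gclc (0.88, adjusted p = 0.00292), Mmp13 (0.56, adjusted p = 0.00955) and the vascular growth factor Vegfa (0.36, adjusted p = 0.0132) higher. Timp1 (-1.03, adjusted p = 1.53e-05), Cd44 (-0.81, adjusted p = 0.00201) and Krt8 (-0.47, adjusted p = 0.00332) were lower, so that 6 of 22 were called against 12% of all genes. In the same comparison 5 of 7 macrophage markers were called lower, against 6.72% of all genes. The differences were -2.73 for Gpnmb, -1.18 for Cd68, -0.86 for Mrc1, -0.60 for C1qa and -0.60 for Cd14, while Adgre1 (-0.38) was not called and Csf1r went the other way without being called (0.42, adjusted p = 0.0777). Of 4 fibroblast markers, Dcn was called lower (-1.19) and Pdgfra (-0.45), Pdgfrb (0.16) and Col1a1 (0.33) were not called. Of 4 endothelial markers, Cdh5 (0.38) and Kdr (0.35) were called higher, against 5.25% of all genes, and Pecam1 (-0.01) and Tek (0.06) were not called. The kidney marker Lrp2, the megalin of the proximal tubule, was higher by 0.45 with FGF23 than in KL null. In KL null against vehicle, 3 of 8 kidney markers were called lower, against 4.44% of all genes. These were Lrp2 (-0.50), Slc34a1 (-0.27) and Slc12a3 (-0.32). With quantile normalization Slc34a1 (-0.05) and Slc12a3 (-0.21) lost these calls. Aqp2 (-0.18), Cdh16 (-0.13) and Nphs1 (-0.24) stood lower and Umod (0.06) and Slc12a1 (0.15) higher, without being called. Markers of neutrophils, lymphocytes, adrenal gland, adipocytes and erythroid cells gave 0 calls in the 3 comparisons, and so did all marker lists with FGF23 against vehicle.

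**Figure D5:**
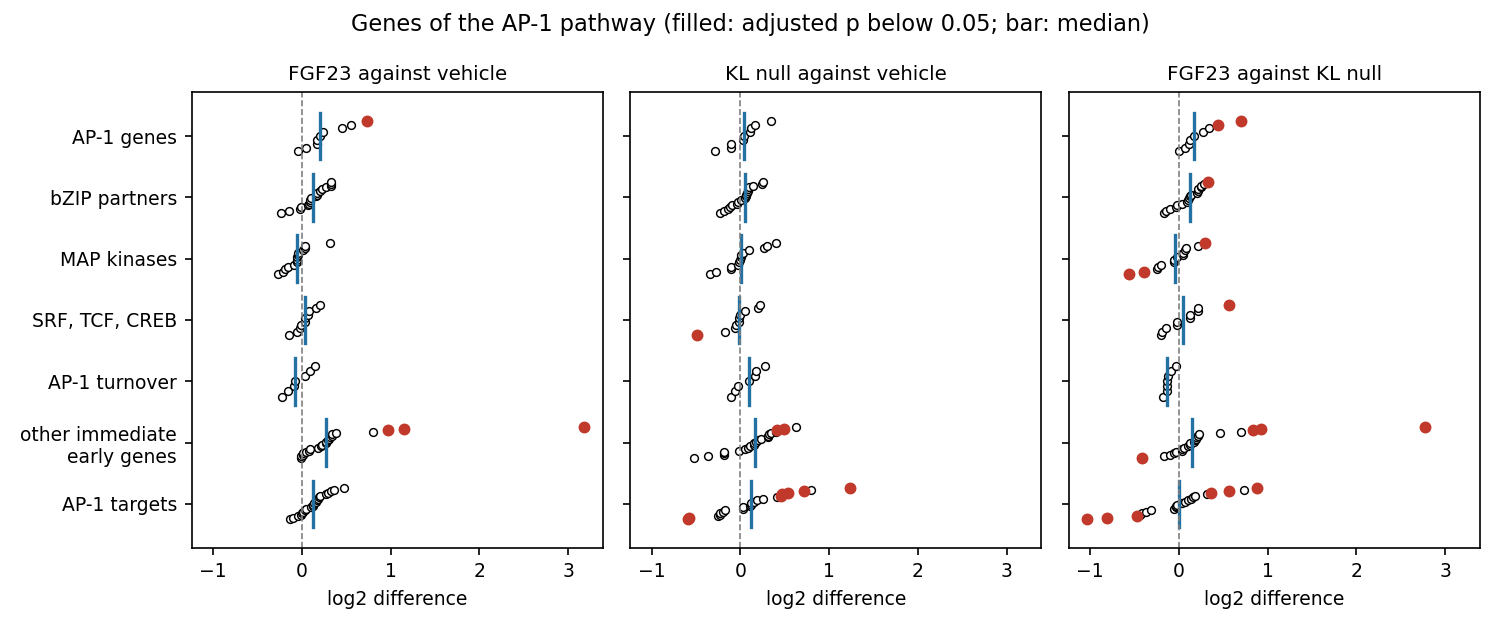
Log2 differences (horizontal axis) of the AP-1 genes and 6 lists around them in the 3 comparisons; each circle is a gene, filled where the adjusted p is below 0.05, and the bar is the list's median. With FGF23 against vehicle the filled circles are Junb and 3 other immediate early genes, with Egr1 farthest out at 3.18.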

How the data were processed

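Gene expression in kidney was measured in 12 samples on Affymetrix whole-transcript arrays. Per the submitters' processing notes, the authors ran RMA (Partek 6.2), and what they deposited is a log2 signal for each probe set. RMA summarises probes on a log scale and compresses the folds of dim genes; how it was set is not given in the sources used here. Without scanner files, which were not used here, signals could not be compared with background. Precision is limited by the number of arrays.

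Of 28853 probe sets, 21789 had 1 gene symbol in the platform annotation, 1621 had several and 5443 none; the last kinds were not used. For each of 19938 genes the probe set with the highest mean was kept. Tests were two-sided and made in limma 3.58.1 (lmFit and eBayes; R 4.3.3), with 1 fit of 3 group means over 12 arrays and 9 residual degrees of freedom, and Benjamini-Hochberg adjustment over all genes. The script was tested on simulated data. Promoters were searched, and tables written, in Python 3.11.15 with pandas 2.3.3; matplotlib 3.10.9 drew the figures.

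The AP-1 genes and the gene lists (partners, MAP kinases, SRF and CREB, turnover, other immediate early genes, targets, and 9 marker lists) were chosen with earlier results of these data known. Of 146 list entries 132 were measured. Genes named are the 9 AP-1 genes, Kl, Egr1, the called genes of each list (where there were none, the 2 of smallest p; for marker lists only the called ones are printed), and for Fos, Jun and Junb the 3 most correlated genes with and without group means, leaving out predicted genes, clones and small RNAs. Promoter sequences are from RefSeq; Fosl1 had no entry.

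Replicate numbers are shared by the groups. Same-numbered arrays correlated in their deviations from the group means by 0.143 to 0.259 for FGF23 and KL null, above 0.1 for every pair. Arrays of different number ranged from -0.219 to 0.238 there. FGF23 replicate 2 with KL null replicate 1 (0.185) and FGF23 replicate 3 with KL null replicate 4 (0.238) were as high as same-numbered pairs. The numbers are therefore not shown to pair samples. Same-numbered arrays correlated by -0.216 to 0.191 for FGF23 and vehicle and by -0.137 to 0.169 for vehicle and KL null, which pairs neither. Alternatives were 1 array left out at a time, fewer arrays, other scaling, weights, moderation, covariates, probe set rules, a filter on dim genes and a replicate block. The omission of the 4 arrays of lowest spread was chosen after seeing the data.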

Additional observations from a re-analysis of the deposited data

Results flagged for a closer look

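In 2 of the 27 sets of 4 arrays (9 AP-1 genes in 3 groups), 1 array stood apart from the other 3 by Dixon's criterion for 4 samples, which sets that gap against the whole range; chance gives about 1 in 20 sets. Fosb in WT vehicle replicate 2 read 5.78 against 5.41 to 5.47 on the other vehicle arrays, a gap of 0.838 of the range. Atf3 in WT vehicle replicate 1 read 6.44 against 5.90 to 5.99, a gap of 0.833 of the range.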

How the results depend on the processing

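Of the AP-1 calls, Junb with FGF23 against KL null was kept in all alternatives run for it, Fos there in all but 1, and Junb with FGF23 against vehicle in 8 of 23. The alternatives were run for the AP-1 genes, Kl and Egr1; genes of the lists were refitted only with quantile normalization and median centring, a choice made after seeing the data, in which no called list gene turned its sign; in KL null against vehicle the MAP kinase genes called went from 0 to 2 under either and the dimer partners from 0 to 1 with centring. The filter on dim genes left Junb, Fos, Fosb, Fosl1, Atf3 and Maff untested; causes were not tested.

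With FGF23 against vehicle, the number of AP-1 genes called was 1 as reported, 2 with array quality weights, 0 to 1 with 1 array left out, and 0 with only the 8 arrays of these groups, quantile normalization, median centring, spread as a covariate, dim genes left out, and without both FGF23 arrays or all 4 arrays of lowest spread. All genes called there numbered 17 as reported and 7, 9, 5, 11, 8 and 9 under the same settings in that order without the dim filter, 6 with the replicate block and 4 to 14 with 1 array left out. In KL null against vehicle, 0 AP-1 genes became 1 (Fosl2) with weights, trended and robust moderation, dim genes left out or without both FGF23 arrays, and 0 to 1 with 1 array left out; all genes called, 1598, became 2852 with weights and 828 to 1728 with 1 array left out. For FGF23 against KL null, 2 AP-1 genes (Fos and Junb) became 3 (with Jund) under quantile normalization, spread as a covariate, weights, trended and robust moderation and without both FGF23 arrays, 1 (Jund; Fos and Junb untested) with dim genes left out and 1 to 3 with 1 array left out (1 without KL null replicate 3, 3 without FGF23 replicate 2), and 2386 genes became 944 without both FGF23 arrays, 1166 without 4 arrays and 1218 to 2794 with 1 array left out.

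The replicate block, in which arrays of the same number share a term, changed no AP-1 call. With it Junb had adjusted p = 0.0246 against vehicle and 0.00125 against KL null. Fos had 0.0162 against KL null, where 2396 genes were called.

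Signs turned only for differences that were uncalled on both sides. Against vehicle with FGF23, Maff was -0.02 without both FGF23 arrays and -0.02 without 4 arrays, and with 1 array left out Fosb ranged from -0.08 to 0.04 and Jund from -0.04 to 0.14. In KL null against vehicle, Fosl1 was -0.05 (quantile), -0.02 (centred), -0.03 (covariate) and -0.05 (4 arrays), Junb -0.03 (quantile), -0.02 (centred), -0.03 (weights) and -0.01 (4 arrays) and Jun 0.24 (4 arrays); with 1 array left out the ranges were -0.02 to 0.07 for Fosl1, -0.07 to 0.13 for Junb, -0.24 to 0.08 for Jun and -0.02 to 0.27 for Atf3. For FGF23 against KL null, Fosl2 was -0.02 and Jun -0.09 (4 arrays), and Maff -0.06 (quantile), -0.08 (covariate), -0.03 (weights), -0.18 (both FGF23 arrays) and -0.19 (4 arrays); with 1 array left out Maff ranged from -0.14 to 0.12 and Atf3 from -0.03 to 0.26.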
